A study of Rattus norvegicus with 12 samples.

Results

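A set of 8 genes named for the activating arm and the late phase of the circadian clock was followed in the central nucleus of the amygdala (CeA) of rats: *Arntl*, *Clock*, *Npas2*, *Cry1*, *Cry2*, *Nfil3*, *Rora* and *Bhlhe40*. They were chosen by name, as the rows of the count table that carry these 8 symbols, out of 37209 genes listed. Earlier results on these data were known at that choice, which limits what counts of members add. All 8 passed the filter on low counts, which left 20944 genes. The animals were wild type male Sprague Dawley rats of 14 to 16 weeks, 6 in the chronic intermittent ethanol (CIE) group and 6 in the Control group, with 1 library of poly-A RNA per rat. CIE rats breathed ethanol vapor for part of each day over several weeks, a procedure that produces physical dependence, and Control rats breathed air throughout. Both groups were killed at the end of the last exposure, when CIE rats were still intoxicated. The clock hour of the kill and the light schedule are not given in the sources used here, so a difference in time of day between the groups cannot be told apart from CIE. The tissue was a micropunch from 1 hemisphere, and a punch can hold parts of neighbouring regions. By the treatment labels, CIE rats carry the numbers 1 to 6 and Control rats 7 to 12, and effects of that order cannot be told apart from CIE either. The sample titles end in CIE for Control rats too, so the groups rest on the treatment labels alone. The comparison asks whether these clock genes differed in the CeA between dependent, intoxicated rats and air-exposed rats.

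The mammalian clock is a feedback loop of transcription. BMAL1, encoded by *Arntl*, pairs with CLOCK or with its close relative NPAS2, and the pair binds E-box sequences and switches on the *Per* and *Cry* genes, whose proteins then return to the nucleus and inhibit the pair. In a second loop, ROR proteins such as RORA activate *Arntl* and other genes through a ROR element, and the REV-ERB proteins, encoded by *Nr1d1* and *Nr1d2*, repress the same genes. NFIL3 represses genes with a D-box, the sequence through which DBP, TEF and HLF activate, and the product of *Bhlhe40* represses genes with an E-box. In tissues with a running clock, *Arntl*, *Npas2*, *Cry1* and *Nfil3* peak far from the phase of *Dbp*, whereas *Clock* and *Rora* change little over the day. NPAS2 is abundant in the forebrain, the striatum included.

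*Nfil3* was the member with the smallest p value, at 6.35 ± 1.12 CPM in CIE rats against 8.92 ± 1.34 CPM in Control rats (SD, n = 6 each; CPM are read counts scaled to library size). *Cry2* was higher in the CIE group by a factor of 1.16, and the ratio of the group means was 0.935 for *Arntl* and 1.02 for *Clock*. Of the 8 members, 2 (*Nfil3* and *Cry2*) had a nominal p value below 0.05 in edgeR's quasi-likelihood F test, 1 lower and 1 higher, where 8.31% of all genes tested did, 4.31% lower and 4.0% higher. None passed a false discovery rate (FDR, Benjamini-Hochberg over all genes tested) of 5% in edgeR, where 0.363% of all genes did. With DESeq2 1 member (*Nfil3*) passed, where 1.12% of the genes with an adjusted p value did, and with limma-voom 0 did. In 0 of the 8 members were the groups free of overlap, a state that 0.893% of all genes tested showed. The median log2 fold change over the members was 0.10, against 0.00096 over all genes tested.

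The sequences just before the start of these genes are shown first because the loop runs through short motifs that lie in such regions. They are the 250 bases before the start given by RefSeq on build GRCr8, a later build than the one to which the reads were mapped, and 7 of the 8 members had an entry (*Arntl* under its later symbol *Bmal1*). Both strands were searched for the E-box CACGTG, its variant CACGTT, the D-box TTANGTAA, the core AGGTCA of the ROR element and the cAMP response element TGACGTCA, and matches are in capitals. Positions are those of the first base of a match, with the base before the start as -1. The 4 sequences below are those of *Arntl* (chr1:176766078-176766327, plus strand), the gene at the centre of the loop, of *Cry2* (chr3:98860438-98860687, minus strand) and *Bhlhe40* (chr4:143174200-143174449, plus strand), inhibitors whose sequence held an E-box or its variant, and of *Nfil3* (chr17:12432126-12432375, plus strand), the member with the smallest p value.
Arntl: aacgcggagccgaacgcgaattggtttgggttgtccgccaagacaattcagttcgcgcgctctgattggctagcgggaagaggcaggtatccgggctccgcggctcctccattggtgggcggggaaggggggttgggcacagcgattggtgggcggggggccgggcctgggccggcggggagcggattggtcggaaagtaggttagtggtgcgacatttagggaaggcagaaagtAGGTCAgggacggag
Cry2: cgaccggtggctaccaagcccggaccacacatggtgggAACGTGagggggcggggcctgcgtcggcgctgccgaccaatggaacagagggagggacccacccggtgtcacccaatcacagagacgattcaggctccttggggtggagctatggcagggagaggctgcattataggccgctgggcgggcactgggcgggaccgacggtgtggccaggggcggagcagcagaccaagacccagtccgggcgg
Bhlhe40: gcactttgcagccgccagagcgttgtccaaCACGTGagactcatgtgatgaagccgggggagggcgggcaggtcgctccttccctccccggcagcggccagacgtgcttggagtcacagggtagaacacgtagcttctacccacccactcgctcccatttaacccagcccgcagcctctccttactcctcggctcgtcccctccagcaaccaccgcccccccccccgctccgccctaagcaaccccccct
Nfil3: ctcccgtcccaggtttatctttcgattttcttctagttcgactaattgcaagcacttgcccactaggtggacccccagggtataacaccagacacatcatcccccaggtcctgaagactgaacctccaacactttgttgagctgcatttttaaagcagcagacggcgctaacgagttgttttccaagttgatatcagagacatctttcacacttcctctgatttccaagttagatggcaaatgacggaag
The *Arntl* sequence held 1 AGGTCA, at -15, a core that 14.1% of the 33469 RefSeq promoters of this length held. In *Cry2* there was 1 CACGTT, on the reverse strand at -212 (4.07% of promoters), and in *Bhlhe40* 1 CACGTG at -220 (5.59% of promoters). The *Nfil3* sequence held none of the 5 motifs within these 250 bases, nor did those of *Clock*, *Npas2* and *Rora*. A match is a run of letters and was not tested as a binding site. The D-box (2.04% of promoters) and the cAMP response element (1.59%) were in none of the 7 members.

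Total counts lay between 61978486 and 78441691 in CIE rats and between 39082548 (rat 11) and 95647601 (rat 8) in Control rats, so each member was counted between 326 and 9196 times in every rat, with *Nfil3* the scarcest. The 10 CeA markers (*Prkcd*, *Sst*, *Crh*, *Penk*, *Gad1* and others) were all detected, with a summed level of 1805 to 3229 CPM in CIE rats against 2011 to 3718 CPM in Control rats. Markers of neighbouring regions varied more. The sum of 7 striatal projection neuron markers ranged from 456 to 3139 CPM in CIE rats and from 236 to 3483 CPM in Control rats, and that of 6 cortical glutamatergic neuron markers from 12.8 to 426 CPM and from 15.6 to 159.9 CPM. All 6 cortical markers had log2 fold changes above 0 (median 1.37), 1 of them at a nominal p value below 0.05, and the median of their sum was 140.7 CPM in CIE rats and 26.3 CPM in Control rats. Of the 10 CeA markers, 2 were lower at that threshold. Myelin markers were lower in the CIE group, with 11 of 12 at a nominal p value below 0.05 and a summed level of 5791 to 14044 CPM against 8896 to 16663 CPM. Endothelial markers were lower at the same threshold in 5 of 10 cases (217 to 284 CPM against 252 to 322 CPM). Every marker of these lists was detected, the scarcest (*Neurod2*, a cortical marker) at a mean of 2.72 CPM. In tissue of mixed cells, fewer cells of a type and less RNA per cell cannot be told apart.

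**Figure D1:**
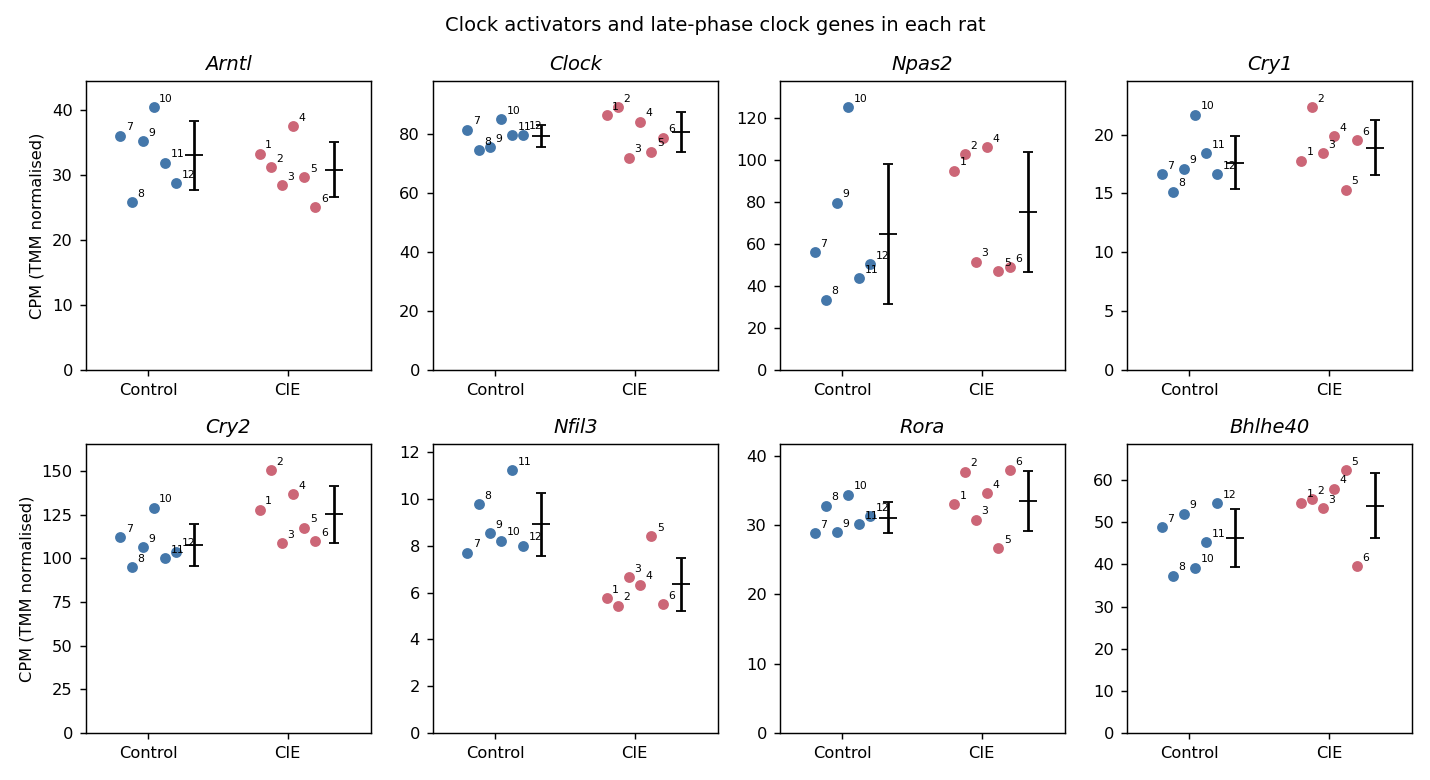
Expression of the 8 members in each rat, in CPM with TMM normalisation on a linear axis from 0. Points are rats with their label numbers (blue Control, red CIE), and the bar beside them is the mean with the SD of 6 rats. For *Nfil3*, 5 CIE rats lie below every Control rat, and for *Bhlhe40* 4 CIE rats lie above every Control rat. For *Npas2* the rats fall into a low and a high set, and both sets hold rats of each group. The groups overlap for all 8 members.

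Among the activators, *Arntl* encodes BMAL1, the partner that the loop cannot do without. It ranged from 25.0 to 37.5 CPM (median 30.5) in CIE rats and from 25.8 to 40.4 CPM (median 33.6) in Control rats. The groups overlapped over almost their whole range, although 5 of the 6 CIE rats were below the Control median. The log2 fold change was -0.10 with an SE of 0.11 (nominal p 0.409, FDR 0.876), with a 95% interval of -0.34 to 0.15 (fold 0.788 to 1.11). With a rat removed it lay between -0.16 (without CIE rat 4) and -0.027 (without Control rat 10), with -0.15 without Control rat 8 and -0.042 without CIE rat 6. *Clock*, the usual partner of BMAL1, was the steadiest member, at 71.8 to 88.9 CPM (median 81.3) in CIE rats and 74.4 to 84.9 CPM (median 79.6) in Control rats. Its log2 fold change was 0.025 (SE 0.065, FDR 0.949), with a 95% interval of -0.11 to 0.16. The CIE values stood on both sides of the Control values, with 2 rats above and 2 rats below all of them. The interval of *Clock* is the narrowest of the 8.

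*Npas2*, which can take the place of CLOCK, was the most variable member. It was at 94.9, 102.8, 51.5, 105.9, 47.1 and 49.0 CPM in CIE rats 1 to 6 and at 56.1, 33.6, 79.6, 125.0, 43.7 and 50.5 CPM in Control rats 7 to 12. The values fell into a high set of 5 rats (79.6 to 125.0 CPM, 3 CIE and 2 Control) and a low set of 7 rats (33.6 to 56.1 CPM, 3 CIE and 4 Control). The log2 fold change was 0.22 (SE 0.31, FDR 0.904), and its 95% interval, -0.45 to 0.89, was the widest of the members. The sets cut across the groups and moved with markers of neighbouring tissue, whose part in the *Npas2* values was not tested beyond the covariate fit given here. The 5 rats with the highest *Npas2* were also the 5 with the highest summed striatal markers (631 to 3483 CPM, against 236 to 598 CPM in the other 7), and 4 of them had the highest cortical sums. In the fifth, Control rat 9, the cortical sum was 17.2 CPM. With striatal and cortical marker scores as covariates, which were added once the data had been seen, the log2 fold change of *Npas2* was -0.012 (FDR 0.991). The cortical markers themselves had a median log2 fold change of 1.37, with 1 of 6 at a nominal p value below 0.05. This fit therefore cannot fully separate the scores from the group for any gene. In fits with a rat removed, the log2 fold change of *Npas2* lay between 0.088 (without Control rat 8) and 0.51 (without Control rat 10, the highest of all, FDR 0.484). It was also low without CIE rat 4 (0.093) or CIE rat 2 (0.11).

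**Figure D2:**
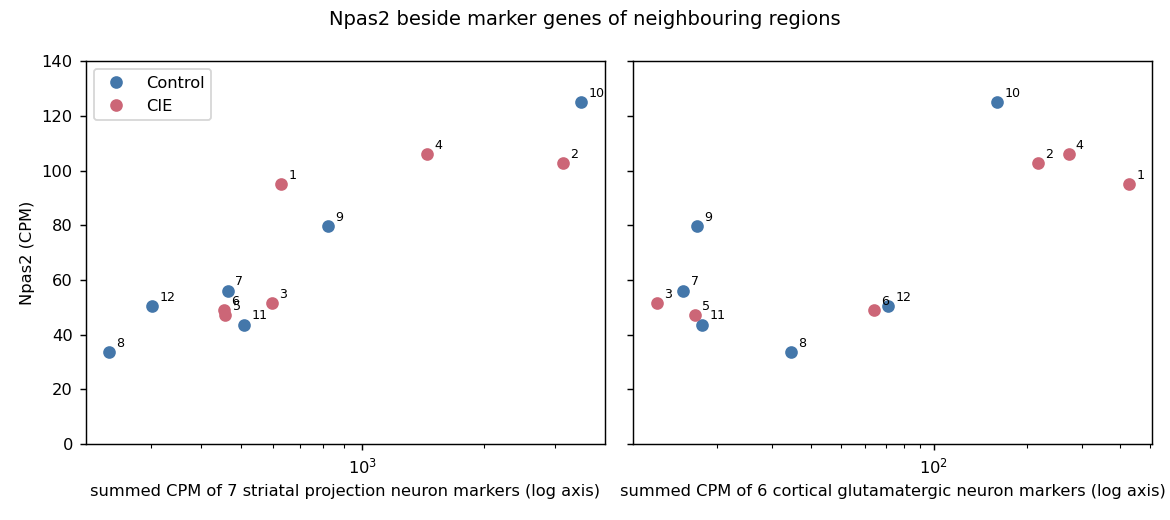
*Npas2* in CPM (vertical axis, linear from 0) against the summed CPM of 7 striatal projection neuron markers (left) and of 6 cortical glutamatergic neuron markers (right), both on log axes. Each point is a rat with its label number, blue for Control and red for CIE. The 5 rats with 79.6 CPM or more of *Npas2* have striatal sums of 631 CPM or more, and rats of both groups are among them.

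Among the inhibitors, *Cry2*, a cryptochrome that blocks the BMAL1 pair, ranged from 108.8 to 150.6 CPM (median 122.7) in CIE rats and from 94.9 to 129.0 CPM (median 105.1) in Control rats. All 6 CIE rats were above the Control median, and 2 (rats 2 and 4) were above every Control rat. The log2 fold change was 0.22 with an SE of 0.094 (nominal p 0.0372, FDR 0.566), and the exact permutation test of the mean CPM gave p = 0.0584. The call at a nominal p value below 0.05 held in 5 of 12 fits with a rat removed, and was lost without CIE rats 1, 2 or 4 or Control rats 8, 9, 11 or 12, with p up to 0.0993 (without CIE rat 2). Control rat 10, at 129.0 CPM, stood above its group, and without it the nominal p was 0.00507 (FDR 0.238). With the striatal and cortical scores as covariates, a fit with the limit given for *Npas2*, the log2 fold change of *Cry2* was 0.14 (nominal p 0.0284). With a myelin marker score, whose markers were themselves lower in the CIE group, it was 0.20 (nominal p 0.164). *Cry1*, its close relative, was at 15.3 to 22.3 CPM (median 19.0) in CIE rats and 15.1 to 21.7 CPM (median 16.9) in Control rats, with 1 CIE rat above every Control rat. Its log2 fold change was 0.10 (SE 0.10, FDR 0.852), with a 95% interval of -0.12 to 0.32, which holds the value of *Cry2*. With a rat removed it lay between 0.046 (without CIE rat 2) and 0.17 (without Control rat 10), with 0.15 without CIE rat 5.

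*Bhlhe40*, which encodes the E-box repressor DEC1 and is also induced by neuronal activity, ranged from 39.6 to 62.4 CPM (median 55.1) in CIE rats and from 37.3 to 54.6 CPM (median 47.0) in Control rats. Above every Control rat stood 4 of the CIE rats, while CIE rat 6 was near the bottom of the Control range. The log2 fold change was 0.22 with an SE of 0.11 (nominal p 0.0735, FDR 0.653; exact permutation p 0.0909). CIE rat 6 had the highest myelin marker sum of its group (14044 CPM), and without it the nominal p was 0.0100 (log2 fold change 0.30, FDR 0.293). Without Control rat 12, the highest of its group, it was 0.0350 (FDR 0.564). Without Control rat 9 the nominal p was 0.0534, and each of the remaining removals raised it, to as much as 0.162 without CIE rat 5. Across the 12 rats with the group means removed, *Bhlhe40* and the summed myelin markers had r = -0.74 (permutation p = 0.0112, adjusted over 64 pairs of a member and a marker list 0.0855) and rho = -0.62 (permutation p = 0.0470, adjusted 0.192). Without the 2 rats farthest from the median of *Bhlhe40* r was -0.41. With the myelin marker score as a covariate, likewise added later, the log2 fold change of *Bhlhe40* was -0.037 (FDR 0.939). The myelin markers were themselves lower in the CIE group (11 of 12 at a nominal p value below 0.05), so this fit cannot separate the score from the group for any gene. Over all genes, 36 passed 5% FDR in it, against 76 without the score. The part of myelin content in the *Bhlhe40* values was not tested.

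*Rora*, the activator that binds the ROR element, ranged from 26.7 to 37.9 CPM (median 33.8) in CIE rats and from 28.8 to 34.3 CPM (median 30.7) in Control rats. CIE rats 2, 4 and 6 were above every Control rat and CIE rat 5 was below every Control rat. The log2 fold change was 0.11 (SE 0.086, FDR 0.805), with a 95% interval of -0.077 to 0.29. Without CIE rat 5 the nominal p was 0.0463 (log2 fold change 0.16, FDR 0.576), whereas the log2 fold change was 0.069 without CIE rat 6 (nominal p 0.423) and 0.070 without CIE rat 2 (nominal p 0.440).

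*Nfil3*, the D-box repressor, was at 5.75, 5.43, 6.66, 6.34, 8.41 and 5.50 CPM in CIE rats 1 to 6 and at 7.71, 9.78, 8.55, 8.22, 11.2 and 8.01 CPM in Control rats 7 to 12. Every CIE rat except rat 5 was below every Control rat, and rat 5 lay inside the Control range. The ratio of the group means was 0.712. The log2 fold change was -0.49 with an SE of 0.13 (nominal p 0.00200, rank 231 of 20944, FDR 0.181), with a 95% interval of -0.77 to -0.21, and the exact permutation test of the mean CPM gave p = 0.00866. The sign was the same in all 21 alternative fits. Leaving out each rat in turn moved the log2 fold change between -0.59 (without CIE rat 5) and -0.41 (without Control rat 11), with a nominal p value below 0.05 in 12 of 12 fits and an FDR between 0.0754 and 0.428. DESeq2 gave an FDR of 0.0401, limma-voom with quality weights 0.0708. With the striatal and cortical scores as covariates the log2 fold change was -0.41 (nominal p 0.00572), and with the myelin score it was -0.51 (nominal p 0.0162). Both fits have the limits given above.

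**Figure D3:**
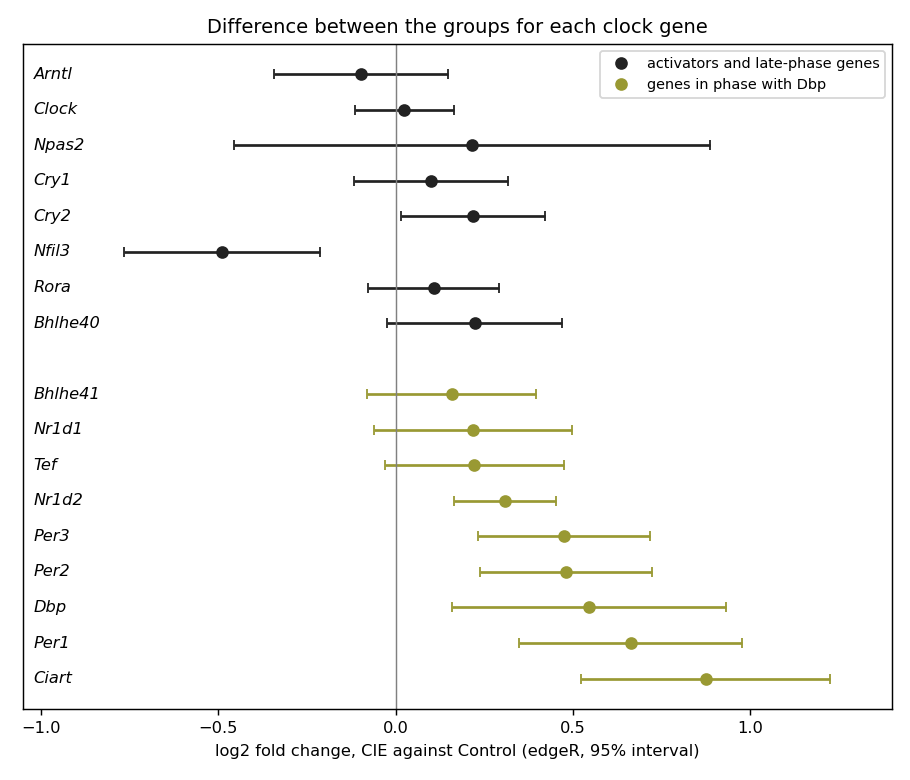
Log2 fold change of each clock gene, CIE against Control, from edgeR's fit over all genes, with its 95% interval (horizontal axis). Black points are the 8 activators and late-phase genes and olive points the 9 genes in phase with *Dbp*. The interval of *Nfil3* lies below 0 and that of *Cry2* just above it, while all 9 olive points lie above 0.

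Other genes of the pathway were taken from lists written with earlier results on these data known, which limits what the counts below add. Of 9 genes that peak in phase with *Dbp*, 6 were higher in the CIE group at a nominal p value below 0.05 and 0 were lower, where 4.0% of all genes tested were higher at this threshold. Their median log2 fold change was 0.47, against 0.10 for the 8 members. *Ciart*, a repressor of the BMAL1 pair, was the only 1 at 5% FDR in edgeR (15.4 ± 4.24 against 8.42 ± 1.33 CPM, SD, n = 6, log2 fold change 0.87, FDR 0.0356), and that call was lost in 7 of 12 fits with a rat removed: its FDR was 0.0768 without CIE rat 1, 0.0903 without CIE rat 4, 0.0776 without Control rat 7, 0.0752 without Control rat 8, 0.111 without Control rat 9, 0.102 without Control rat 11, 0.0883 without Control rat 12. DESeq2 called 5 of the 9 at 5% FDR (*Ciart*, *Nr1d2*, *Per1*, *Per2* and *Per3*), where 1.12% of the genes with an adjusted p value passed. With limma-voom 6 passed (the same 5 and *Dbp*), where 234 of the 20944 genes tested did. In edgeR, *Nr1d2*, which encodes a repressor acting at the ROR element, had a log2 fold change of 0.31 (FDR 0.0765), *Per1*, an inhibitor of the BMAL1 pair, 0.66 (FDR 0.0863), and *Dbp*, the D-box activator, 0.54 (SE 0.18, nominal p 0.00918, FDR 0.362). Of 22 kinases, ubiquitin ligases and cofactors of the clock, 1 had a nominal p value below 0.05 in edgeR, where 8.31% of all genes tested did. It was *Kmt2a*, a histone methyltransferase (205 ± 21.8 against 180 ± 18.2 CPM, SD, n = 6, log2 fold change 0.19, nominal p 0.0436, FDR 0.584). Of the 22, 0 passed 5% FDR in edgeR, DESeq2 or limma-voom. With 1 surrogate variable in the model, 1 did (*Usp2*, FDR 0.00511). Their median log2 fold change was -0.0065. Next by p value were *Usp2*, a deubiquitinase (0.68, SE 0.38, nominal p 0.0971), and *Kdm5a*, a histone demethylase (0.086, nominal p 0.165). The paralogues *Rorb* (0.13, nominal p 0.106) and *Arntl2* (0.36, nominal p 0.353) were tested.

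A ratio of 2 genes within a rat does not depend on the scaling of its library, and 3 such ratios were examined. The log2 ratio of *Arntl* to *Dbp* counts was -2.63, -3.32, -2.77, -2.62, -2.55 and -2.82 in CIE rats 1 to 6 and -1.91, -2.18, -2.07, -2.54, -1.93 and -2.18 in Control rats 7 to 12. All 6 CIE rats were below all 6 Control rats, although either gene alone overlapped between the groups. Control rat 10, which had the highest *Arntl*, *Dbp* and striatal marker sum of its group, lay closest to the CIE group, at -2.54 beside -2.55 in CIE rat 5. The mean ratio was -2.78 ± 0.28 in CIE rats and -2.13 ± 0.23 in Control rats (SD, n = 6 each), a difference of -0.65 (exact permutation p = 0.00216, the smallest that 6 rats against 6 allow; adjusted over 3 ratios 0.00649). The larger part of this difference was in *Dbp* (log2 fold change 0.54) and the smaller in *Arntl* (-0.10). The pair was chosen with earlier results on *Dbp* known, which limits what its p value adds. The ratio of *Npas2* to *Clock* differed by 0.24 (exact permutation p = 0.455, adjusted 0.455) and that of *Cry1* to *Cry2* by -0.11 (exact permutation p = 0.195, adjusted 0.292). In the latter, 4 CIE rats (1, 2, 4 and 5) were below every Control rat and the other 2 were among the Control rats.

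**Figure D4:**
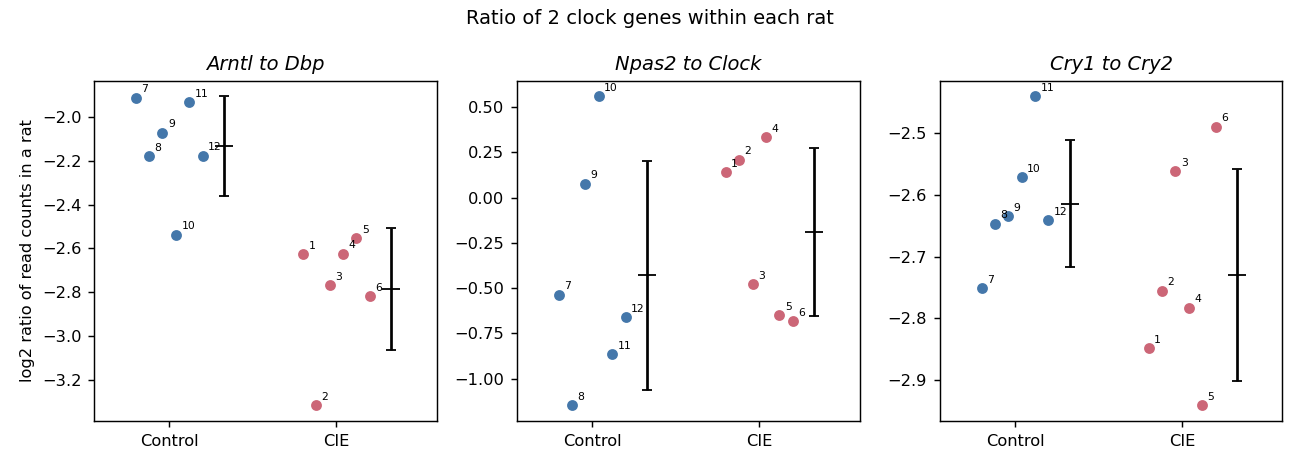
Log2 ratio of the read counts of 2 clock genes within each rat (vertical axis), for *Arntl* to *Dbp*, *Npas2* to *Clock* and *Cry1* to *Cry2*. Points are rats with their label numbers (blue Control, red CIE) and bars are the mean with the SD of 6 rats. Only for *Arntl* to *Dbp* do the groups not overlap, with CIE values from -3.32 to -2.55 and Control values from -2.54 to -1.91.

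Variation among rats was examined with the group means removed, over the 28 pairs of members and the 8 pairs of a member with *Dbp*. Because *Npas2* fell into separate sets of rats, no correlation over all rats is given for it. Of the 28 among these 36 pairs that leave out *Npas2*, 5 passed 5% after Benjamini-Hochberg adjustment over all 36. The share of pairs of other genes that would pass was not computed, so this count has no background beside it. *Cry2* varied with *Dbp* most closely (r = 0.91, permutation p = 0.000240, adjusted 0.00432; rho = 0.83, permutation p = 0.00249, adjusted 0.0177), and r was 0.90 within the CIE group and 0.94 within the Control group. Leaving out the 2 rats most distant from the *Cry2* median (CIE rat 2 and Control rat 10) gave r = 0.79. *Cry2* also varied with *Clock* (r = 0.84, permutation p = 0.00204, adjusted 0.0147; rho = 0.85, permutation p = 0.00417, adjusted 0.0214; r without the 2 farthest rats 0.75) and with *Arntl* (r = 0.78, permutation p = 0.00384, adjusted 0.0197; rho = 0.80, permutation p = 0.00257, adjusted 0.0177; r without the 2 farthest rats 0.67). *Clock* and *Dbp* had r = 0.68 (permutation p = 0.0101, adjusted 0.0430) and rho = 0.71 (permutation p = 0.0151, adjusted 0.0603), with r = 0.64 without CIE rats 2 and 3. The relation of *Cry1* with *Dbp* (r = 0.82, permutation p = 0.00344, adjusted 0.0197; rho = 0.66, permutation p = 0.0300, adjusted 0.0983) rested on CIE rat 2 and Control rat 10, since r was 0.44 without them. *Arntl* and *Dbp*, genes of opposite phase, had a positive r of 0.67 (permutation p = 0.0271, adjusted 0.0697) and rho of 0.83 (permutation p = 0.00295, adjusted 0.0177), with r = 0.46 without Control rats 8 and 10 and r = 0.33 with the group means kept. With *Npas2* left out, *Nfil3* had negative values with 5 of the other members and with *Dbp* (r = -0.47, permutation p = 0.121, adjusted 0.198; rho = -0.46, permutation p = 0.152, adjusted 0.293), and none of its pairs passed. With the group means kept, r was 0.50 for *Arntl* and *Cry2* and -0.74 for *Nfil3* and *Dbp*, and with library size as the only scaling it was 0.70 for *Clock* and *Cry2* and 0.45 for *Clock* and *Dbp*.

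Marker sums, compared with the members after their values had been seen, also moved with several of them. With the group means removed, the striatal sum had r = 0.88 with *Cry2* (permutation p = 0.000710, adjusted over 64 pairs 0.0154; rho = 0.76, permutation p = 0.00522, adjusted 0.111) and r = 0.85 with *Cry1* (permutation p = 0.000720, adjusted 0.0154; rho = 0.73, permutation p = 0.0115, adjusted 0.117). Without CIE rat 2 and Control rat 10 these were 0.68 and 0.58. For *Arntl* r was 0.73 (permutation p = 0.0120, adjusted 0.0855; rho = 0.85, permutation p = 0.00294, adjusted 0.0941) and for *Nfil3* -0.33 (permutation p = 0.303, adjusted 0.525; rho = -0.20, permutation p = 0.538, adjusted 0.861). The sum of the 10 CeA markers had r = 0.81 with *Arntl* (permutation p = 0.00319, adjusted 0.0510; rho = 0.73, permutation p = 0.0128, adjusted 0.117; r without Control rats 8 and 10 0.68) and r = 0.76 with *Cry2* (permutation p = 0.00675, adjusted 0.0617; rho = 0.64, permutation p = 0.0396, adjusted 0.192; r without CIE rat 2 and Control rat 10 0.54). That sum was highest in Control rat 10 (3718 CPM) and CIE rat 2 (3229 CPM), which also had the highest striatal sums (3483 and 3139 CPM). Whether these markers are particular to the CeA was not tested. The cortical sum had r = 0.84 with *Clock* (permutation p = 0.00469, adjusted 0.0597; rho = 0.80, permutation p = 0.00931, adjusted 0.117; r without CIE rats 2 and 3 0.79). The part of these sums in the correlations among clock genes was not tested.

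**Figure D5:**
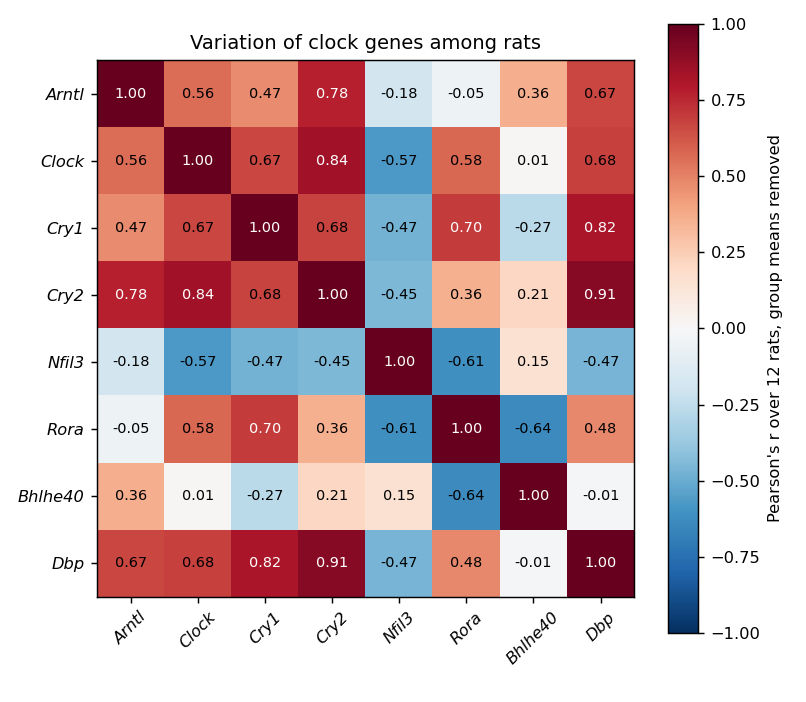
Pearson's r between 7 of the members and *Dbp* over 12 rats, on log2 CPM with the group means removed (blue negative, red positive, values printed in the cells). *Cry2* has values of 0.68 to 0.91 with *Arntl*, *Clock*, *Cry1* and *Dbp*, whereas *Nfil3* is negative with all genes shown except *Bhlhe40*.

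For each member, the genes with the most similar pattern among rats were sought among 16891 genes with a mean of at least 1 CPM, as a description over 12 rats with the group means removed. *Npas2* was left out because of its separate sets of rats. The 3 closest to *Cry2* were *Sez6* (0.98), a neuronal membrane protein, *Slc8a2* (0.98), a sodium-calcium exchanger, and LOC102549884 (0.97). The closest to *Clock* were *Rab11fip3* (0.96), *Ryr2* (0.95), an intracellular calcium channel, and *Agtpbp1* (0.95). *Arntl* was closest to *Trub1* (0.95), LOC102551333 (0.94) and *Klf10* (0.93), a transcription factor, and *Cry1* to *Dlg1* (0.95), a synaptic scaffold protein, *Tmem263* (0.93) and RGD1310257 (0.92). *Nfil3* was closest to *Dnmt3b-ps2* (0.93), *Tmem128* (0.93) and RGD1308147 (0.92), *Rora* to *Seli* (0.92), *Abl1* (0.92), a tyrosine kinase, and *Spef1* (0.90), and *Bhlhe40* to *Arl6* (0.93), *Dnajc5* (0.91), a synaptic vesicle chaperone, and *Gprin1* (0.91). No member was among the 3 closest genes of these 7.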

How the data were processed

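Poly-A RNA of the CeA was sequenced as paired reads of 75 bases. By the study's methods and the submitters' processing notes, the authors used BWA for alignment (Rnor_6.0) and HTSeq for the gene counts, and the deposited values are raw counts. The annotation and the strand setting are not given in the sources used here. Each rat was 1 sample. The members and gene lists were chosen with earlier results of these data known. Genes passing edgeR's filterByExpr were tested with TMM normalisation and the quasi-likelihood F test (edgeR 4.0.16, R 4.3.3), with Benjamini-Hochberg adjustment over all 20944 genes, and CPM are TMM-normalised. The study's own tool, DESeq2 (1.42.0 here), was an alternative, as were limma-voom with quality weights (limma 3.58.1), other scalings and filters, 1 surrogate variable (sva 3.50.0) and leaving out each rat. After the data were seen, 2 fits with marker scores as covariates were added. Exact permutation tests (scipy 1.17.1) were two-sided over 924 orders, and correlations of log2 CPM (prior count 2) used 100000 permutations within groups. Ratios used a prior count of 0.5. The fits were tested on simulated counts. Named genes were the 8 members, *Dbp*, list genes at 5% FDR or up to 3 of smallest p per list, and the 3 nearest genes of each member except *Npas2*. *Hlf* and *Fbxl21* were not found under these symbols and are not analysed here.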

Additional observations from a re-analysis of the deposited data

Results flagged for a closer look

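In 24 groups of 6 rats (the members, *Dbp* and the ratios), the highest and lowest rats were compared with the rest by Dixon's criterion, which chance meets in about 1 in 20 groups, and 2 values met it. *Dbp* in Control rat 10 was at 234.8 CPM, whereas the other Control rats were between 116.8 and 148.0 CPM. The log2 ratio of *Arntl* to *Dbp* in CIE rat 2 was -3.32, whereas the other CIE rats were between -2.82 and -2.55. These rats also had the highest striatal marker sum of their group, 3483 CPM in Control rat 10 and 3139 CPM in CIE rat 2, whose part was not tested.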

How the results depend on the processing

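The sign of *Nfil3*, *Cry1*, *Cry2* and *Rora* was the same in all 21 alternatives. Signs turned for *Arntl* with limma-voom (0.0018), for *Clock* with 1 surrogate variable (-0.0095), with striatal and cortical scores (-0.035) and without CIE rat 2 (-0.0058, with a range up to 0.056 when a rat was left out), for *Npas2* with striatal and cortical scores (-0.012) and for *Bhlhe40* with the oligodendrocyte score (-0.037). Members at a nominal p value below 0.05 (2) numbered 1 with the oligodendrocyte score and 1 to 3 when a rat was left out (1 without CIE rats 1, 2 or 4 or Control rats 8, 9 or 11, 3 without CIE rats 5 or 6), and DESeq2 called 1 at 5% FDR. Genes in phase with *Dbp* at 5% FDR (1) numbered 3 with library size only, 5 with DESeq2, 6 with limma-voom, 3 with 1 surrogate variable, 3 with striatal and cortical scores, 0 with the oligodendrocyte score and 0 to 4 when a rat was left out (0 without CIE rats 1 or 4 or Control rats 7, 8, 9, 11 or 12, 3 without Control rat 10, 4 without CIE rat 3). Clock modifiers at a nominal p value below 0.05 (1) numbered 3 with limma-voom, 2 with 1 surrogate variable, 2 with either set of scores and 0 to 3 when a rat was left out (0 without CIE rats 1, 4, 5 or 6 or Control rats 8, 9 or 11, 3 without CIE rat 3), and 1 passed 5% FDR with 1 surrogate variable. Over all genes, 1740 at a nominal p value below 0.05 became 3596 with limma-voom and 1347 to 2811 when a rat was left out (2811 without CIE rat 3). The 76 at 5% FDR became 266 with DESeq2, 234 with limma-voom, 36 with the oligodendrocyte score and 34 to 154 when a rat was left out (lowest without Control rat 9, highest without CIE rat 6), with under 50 also without CIE rats 1, 2 or 4 or Control rats 8 or 11. Of the correlations recomputed with library size only or with the group means kept, 11 moved by more than their standard error and 61 did not. The cause of these changes was not tested. No paired analysis was possible because the groups share no rat numbers (1 to 6 and 7 to 12). Intervals reflect 6 rats per group, taken as independent. The study housed its rats in groups and the labels do not give the cages, so effects of a shared cage were not tested. *Nfil3*, with 326 to 940 counts per rat, rests on the fewest reads.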
